A study of Homo sapiens with 6 samples.

Results

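Integrin subunit genes were measured in MDA-MB-231, a human triple-negative breast cancer cell line, after knockdown of HMGA2, an architectural protein that binds AT-rich DNA. The 10 genes were ITGA2, ITGA3, ITGA5, ITGA6, ITGAV, ITGB1, ITGB3, ITGB4, ITGB5 and ITGB8, found by their symbol in a table of 61806 genes, and 16 other integrin genes in the same table were read beside them. The 3 lines were shNC, the control by the sample titles, and shHMGA2-1 and shHMGA2-2, which carry different short hairpin RNAs against HMGA2. The methods describe lentiviral infection, puromycin selection and expansion of each knockdown line from a single clone, and do not state the last step for shNC, so the hairpin and the clone cannot be told apart. Each line gave 2 libraries of captured mRNA, and nothing in the labels says that they came from separate cultures, so that p-values measure the spread between these libraries, which may be technical. Library names do not match all titles: the controls read WT there, and SH2 stands in the names of shHMGA2-1. The titles were followed.

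Integrins are heterodimers of an alpha and a beta chain that link the extracellular matrix to the actin cytoskeleton. ITGB1 pairs with many alpha chains, among them ITGA2 for collagen, ITGA3 and ITGA6 for laminin and ITGA5 for fibronectin, whereas ITGB4 pairs with ITGA6 alone and anchors epithelial cells at hemidesmosomes. ITGAV pairs with several beta chains, including ITGB1, ITGB3, ITGB5 and ITGB8, to bind vitronectin, fibronectin or latent TGF-beta. Surface heterodimers depend on both chains, and mRNA levels do not give protein or surface amounts.

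Libraries held 16461178 to 17167293 counts, and 16110 genes were tested. HMGA2 counts were 2126 and 2161 for the controls, against 858 and 989 for shHMGA2-1 and 435 and 482 for shHMGA2-2. Knockdown libraries all lay below both controls, as the titles imply, and the titles give no order between the knockdown lines. The log2 fold changes were -1.29 (standard error 0.09) and -2.31 (standard error 0.09) against shNC (edgeR adjusted p = 1.97e-11 and 1.81e-16). VIM, CD44, AXL and EPAS1, chosen as markers of MDA-MB-231, were present in every library. ESR1, PGR and CDH1 reached at most 12, 2 and 4 counts. ERBB2 and EPCAM, listed with them as low or absent, were detected at 6.43 to 10.8 and 3.08 to 7.26 FPKM (fragments scaled to exonic size and library total).

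ITGB1 was the most abundant of the 10 genes per exonic length in all 3 lines. In shNC its mean level was 256 FPKM, followed by ITGA3 at 74.0 FPKM, ITGA6 at 39.6 FPKM and ITGA2 at 19.4 FPKM. ITGB5, ITGAV and ITGA5 lay between 18.0 and 11.6 FPKM, and the libraries of ITGAV and ITGA5 overlapped. ITGB4 at 1.40, ITGB3 at 0.25 and ITGB8 at 0.02 FPKM were the lowest. The first 3 genes kept their places in the knockdown lines. By exonic size, ITGA2 moved from the fourth place to the eighth in shHMGA2-1. There ITGAV, ITGB4 and ITGA5 formed a run of neighbours whose libraries overlapped. In shHMGA2-2 ITGA2 was the seventh, and ITGA5 and ITGB5 overlapped. The plot of FPKM by library shows the same 10 genes side by side.

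**Figure D1:**
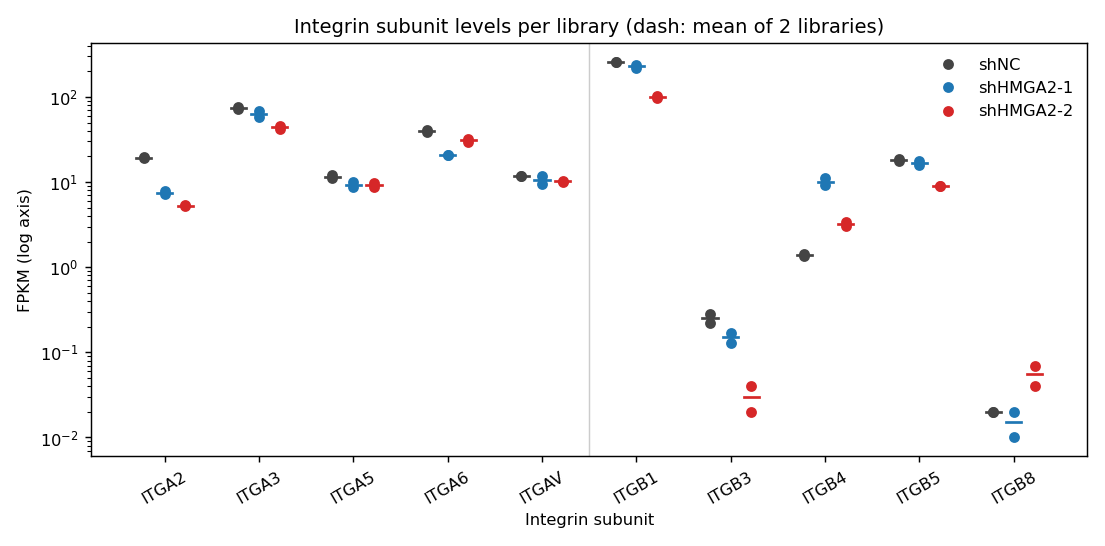
FPKM of the 10 integrin subunits (log axis) in each library of shNC, shHMGA2-1 and shHMGA2-2, with alpha chains left and beta chains right of the vertical line and a dash at the mean of the 2 libraries of a line. ITGB1 lies highest in every line, ITGA2 falls from 19.4 FPKM in shNC to 5.30 in shHMGA2-2, and ITGB4 is highest in shHMGA2-1, at 10.1 FPKM.

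Against shNC, 6 of the 10 genes fell and 1 rose in shHMGA2-1 at an adjusted p under 0.05 (edgeR), where 33.5% of all tested genes were called, 17.7% lower and 15.8% higher. In shHMGA2-2, 8 fell and 1 rose, where 58.8% of all tested genes were called, 29.2% lower and 29.5% higher. The median log2 fold change of the 10 was -0.34 and -0.67, beside 0.01 and 0.03 over all tested genes. With a change of at least 2-fold as well, 2 of the 10 were called in shHMGA2-1 (8.49% of all tested genes) and 5 in shHMGA2-2 (21.3%). Both comparisons use the same shNC libraries. Scaling by the upper quartile in place of TMM (trimmed mean of M values, the scaling used here) raised the share of higher genes among all calls from 47.2% to 58.8% in shHMGA2-1 and from 50.3% to 59.9% in shHMGA2-2, and moved the median of all genes in shHMGA2-2 from 0.03 to 0.14. ITGB8 passed the filter on low counts only through the shHMGA2-2 libraries, where it was highest. In bulk RNA, fewer cells that express a gene and less RNA per cell cannot be told apart.

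**Figure D2:**
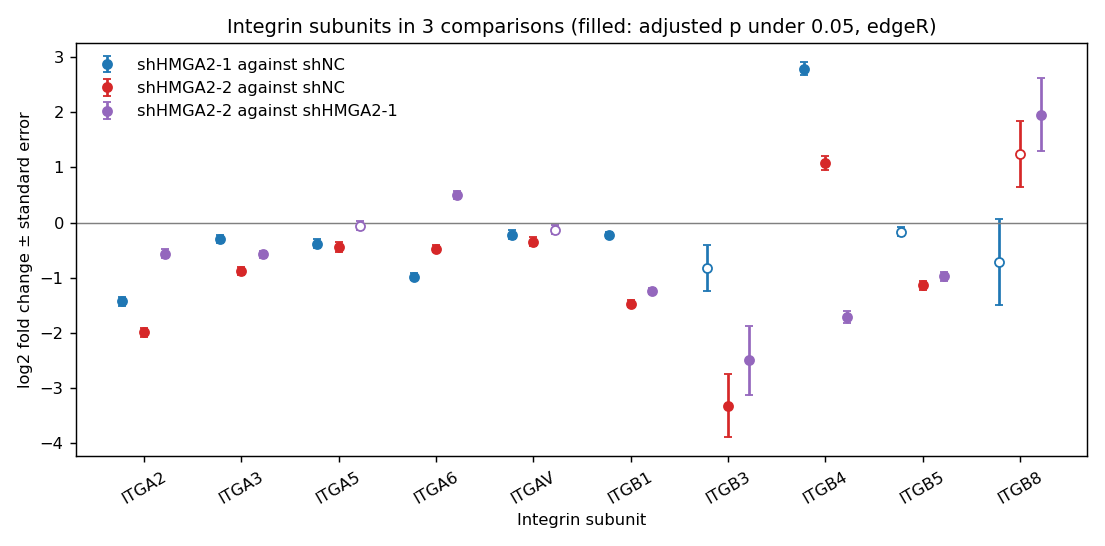
Log2 fold change with standard error for the 10 subunits in shHMGA2-1 against shNC, shHMGA2-2 against shNC and shHMGA2-2 against shHMGA2-1, with filled points at an edgeR adjusted p under 0.05. ITGA2 lies below 0 in all 3 comparisons, and ITGB4 lies above 0 against shNC in both lines and below 0 between them.

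ITGA2 (ENSG00000164171, plus strand of chromosome 5, 52989340 to 53094779 in GRCh38.p13), the alpha chain of a collagen and laminin receptor, was measured at 19.2 and 19.5 FPKM in shNC. It was 7.26 and 7.82 FPKM in shHMGA2-1, and 5.29 and 5.31 FPKM in shHMGA2-2. All 4 knockdown libraries lay below both controls, and those of shHMGA2-2 below those of shHMGA2-1. ITGA2 fell by 1.43 on the log2 scale in shHMGA2-1 (standard error 0.08, edgeR adjusted p = 6.15e-13), a 2.69-fold decrease, and by 1.99 in shHMGA2-2 (standard error 0.08, edgeR adjusted p = 2.36e-16), a 3.97-fold decrease. The 4 shHMGA2 libraries were also taken as a single group. This fit treats all 4 as independent and counts the difference between the knockdown lines as error. Its adjusted p-values therefore do not measure the spread between libraries of a line. There ITGA2 was the only one of the 10 genes called, at a log2 fold change of -1.68 (standard error 0.20, edgeR adjusted p = 0.0108). Of all tested genes 5.26% were called, and 3.09% with at least a 2-fold change. DESeq2 called 4 of the 10, where it called 11.2% of all tested genes. The edgeR call of ITGA2 was lost without either shNC library, when a single control remained, with log2 fold changes of -1.7 and -1.67.

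ITGA1, the alpha chain of another collagen receptor, lies 30130 bases before ITGA2 on the same strand. Its FPKM was 2.02 and 2.33 in shNC, 0.73 and 0.71 in shHMGA2-1, and 0.48 in both shHMGA2-2 libraries. The knockdown libraries were again below the controls, with log2 fold changes of -1.66 and -2.30 (standard errors 0.12 and 0.12, edgeR adjusted p = 3.4e-11 and 4.22e-14). In the deposited table ITGA1 and PELO, a ribosome rescue factor, share their start at 52787916 on the same strand, so reads of these genes may have been divided between them. PELO, and MOCS2, which follows ITGA2 on the other strand, were chosen after their values were seen. PELO had log2 fold changes of -0.26 and -0.21, and MOCS2 of -0.29 and -0.45 (edgeR adjusted p from 2.08e-05 to 0.0478), which are smaller than those of ITGA1 and ITGA2.

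ITGA3 and ITGA6 encode alpha chains of laminin receptors. ITGA3 (ENSG00000005884, plus strand of chromosome 17, 50055968 to 50090481) was at 72.7 and 75.2 FPKM in shNC, 67.9 and 58.0 FPKM in shHMGA2-1, and 42.5 and 45.1 FPKM in shHMGA2-2. No libraries of different lines overlapped. Its log2 fold change was -0.30 (standard error 0.06, edgeR adjusted p = 0.000805) in shHMGA2-1 and -0.88 (standard error 0.07, edgeR adjusted p = 2.65e-11) in shHMGA2-2. The first of these calls was lost with limma on FPKM, at adjusted p = 0.0902 and 0.0924 with pseudocounts of 1 and 0.1.

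ITGA6 (ENSG00000091409, plus strand of chromosome 2, 172427354 to 172506459) had the reverse order of the knockdown lines. It was at 38.6 and 40.5 FPKM in shNC, 20.9 and 21.1 FPKM in shHMGA2-1, and 32.1 and 29.8 FPKM in shHMGA2-2. All knockdown libraries lay below the controls, and shHMGA2-1 was lowest. The log2 fold change was -0.98 (standard error 0.07, edgeR adjusted p = 5.22e-11) in shHMGA2-1 and -0.47 (standard error 0.07, edgeR adjusted p = 2e-06) in shHMGA2-2. The direct comparison of shHMGA2-2 with shHMGA2-1 gave 0.51 (standard error 0.07, edgeR adjusted p = 1.36e-06).

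ITGA5 (ENSG00000161638, minus strand of chromosome 12, 54395261 to 54419266), the alpha chain of the classical fibronectin receptor, was at 11.1 and 12.1 FPKM in shNC, 9.92 and 8.65 FPKM in shHMGA2-1, and 8.78 and 9.77 FPKM in shHMGA2-2. The knockdown lines overlapped each other and lay below shNC. The log2 fold changes were -0.38 and -0.44 (standard error 0.09 for each, edgeR adjusted p = 0.00107 and 0.000103). The call in shHMGA2-1 was lost without shNC replicate 2 (edgeR adjusted p = 0.0596) and with limma (0.0648 and 0.0675). The knockdown lines differed by -0.06 (standard error 0.09, edgeR adjusted p = 0.618).

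ITGAV (ENSG00000138448, plus strand of chromosome 2, 186590010 to 186680901) changed least among the alpha chains of the 10 genes. Its counts were 3914 and 3880 for the controls, 3166 and 3907 for shHMGA2-1, and 3244 and 3248 for shHMGA2-2. shHMGA2-1 replicate 2 lay between the controls in raw counts, while the other 3 knockdown libraries lay below them. The log2 fold change was -0.22 (standard error 0.08, edgeR adjusted p = 0.0397) in shHMGA2-1 and -0.34 (standard error 0.08, edgeR adjusted p = 0.000749) in shHMGA2-2. The first call was lost in 11 of 15 alternatives, with -0.06 and adjusted p = 0.505 without shHMGA2-1 replicate 1. The second was lost with limma (adjusted p = 0.121 and 0.125).

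ITGB1 (ENSG00000150093, minus strand of chromosome 10, 32887273 to 33005792), the common beta chain, was at 256 FPKM in both shNC libraries, 220 and 237 FPKM in shHMGA2-1, and 103 and 97.8 FPKM in shHMGA2-2. The shHMGA2-1 libraries lay a little below the controls, and the shHMGA2-2 libraries far below all others. ITGB1 fell by 1.47 on the log2 scale in shHMGA2-2 (standard error 0.06, edgeR adjusted p = 1.1e-16), a 2.76-fold decrease. In shHMGA2-1 it fell by 0.23 (standard error 0.06, edgeR adjusted p = 0.00292), a call lost without shNC replicate 2 (0.0596) and with limma (0.0753 and 0.0759). The direct comparison of shHMGA2-2 with shHMGA2-1 gave -1.24 (standard error 0.06, edgeR adjusted p = 4.18e-15).

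ITGB1P1, a processed pseudogene on chromosome 19 from 14621634 to 14622242, was examined after its values were seen because its sequence is a copy of part of ITGB1. All of its 609 bases were identical to bases 1851 to 2459 of the ITGB1 transcript ENST00000302278.7, within the coding sequence of exons 13 to 16 and across 3 exon junctions. The stretches below, from GENCODE version 29, show 100 of these bases around the last junction, with the exon 16 side in capitals. They are printed because a read that lies within them can come from either locus.
ITGB1: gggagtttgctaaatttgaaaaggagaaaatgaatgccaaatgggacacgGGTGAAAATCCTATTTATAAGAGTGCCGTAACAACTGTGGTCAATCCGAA
ITGB1P1: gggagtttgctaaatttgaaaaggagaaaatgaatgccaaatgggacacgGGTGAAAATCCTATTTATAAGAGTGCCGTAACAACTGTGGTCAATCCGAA

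ITGB1P1 was counted 2521 and 2457 times for shNC, 2179 and 2349 times for shHMGA2-1, and 1090 and 940 times for shHMGA2-2. They amounted to 3.88% to 4.40% of the ITGB1 counts in every library, so they moved with ITGB1. Its own log2 fold changes were -0.21 and -1.37 (edgeR adjusted p = 0.0426 and 7.26e-13), and the first call was lost in 10 alternatives (adjusted p from 0.0528 to 0.242). With ITGB1P1 counts added to those of ITGB1, an alternative chosen after seeing the data, the number of the 10 genes called was unchanged in all 4 comparisons. Because their share was nearly constant, this sum could hardly change the fold of ITGB1, and nothing is concluded from it. Which locus made these reads was not tested.

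ITGB1-DT, a long noncoding RNA that starts at the ITGB1 promoter and runs the other way, was likewise chosen after its values were seen. Control libraries held 183 and 172 of its counts, those of shHMGA2-1 held 86 and 99, and those of shHMGA2-2 held 35 and 33. Its libraries stood in the same order of lines as those of ITGB1. The log2 fold changes were -1.02 and -2.46 (standard errors 0.17 and 0.20, edgeR adjusted p = 5.66e-05 and 2e-10). In GENCODE version 29 the exons of both genes share 42 bases on opposite strands. The exonic size of ITGB1 is 6011 bases there and 14561 in the deposited table, so the overlap in counting may be larger. The strand setting of the counting is not given in the sources used here, so reads in shared bases cannot be assigned.

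The ITGB1 promoter is shown because ITGB1-DT and an ITGB1 transcript start in it. The sequence is that of RefSeq on GRCh38.p14, chr10:32958181-32958480 on the minus strand, and the 44 capitals mark the bases that lie within ITGB1-DT as the deposited table places it.
ITGB1 promoter: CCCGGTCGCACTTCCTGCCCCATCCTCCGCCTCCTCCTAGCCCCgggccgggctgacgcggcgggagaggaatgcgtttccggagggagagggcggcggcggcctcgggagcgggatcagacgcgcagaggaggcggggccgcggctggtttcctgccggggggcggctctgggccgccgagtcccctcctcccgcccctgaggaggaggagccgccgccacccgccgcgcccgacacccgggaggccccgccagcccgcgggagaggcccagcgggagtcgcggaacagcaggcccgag

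This promoter is 21.7% A and T, and 4.03% of the 35116 RefSeq promoters of the same length have a lower share, the median being 41.3%. It holds 0 runs of 5 or more A or T letters, which 76.5% of promoters have at least once. The promoter of ITGA2 is 27.3% A and T and also holds 0 such runs. RefSeq gave 12 promoters for 7 of the 10 genes, and the listed windows of single genes differ, with a second ITGB1 window at 59.3% A and T. These letters describe the windows and say nothing of where HMGA2 binds.

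**Figure D3:**
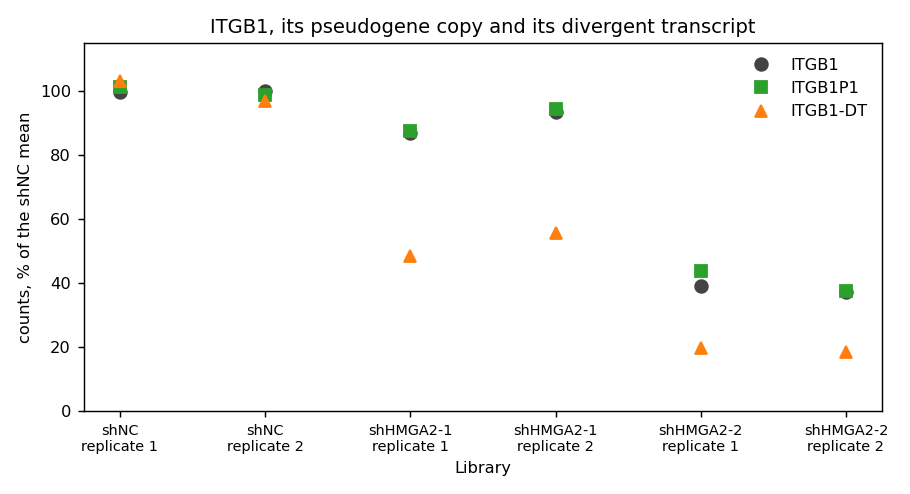
Counts of ITGB1, ITGB1P1 and ITGB1-DT in each library as a percentage of their own shNC mean. ITGB1P1 follows ITGB1 closely in every library, and ITGB1-DT, with 33 to 183 counts, lies lower in all 4 knockdown libraries.

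ITGB4 (ENSG00000132470, plus strand of chromosome 17, 75721328 to 75757818), the hemidesmosomal partner of ITGA6, was the only one of the 10 genes called higher than shNC in either knockdown line. It was at 1.43 and 1.37 FPKM in shNC, 11.1 and 9.14 FPKM in shHMGA2-1, and 3.37 and 3.06 FPKM in shHMGA2-2. No libraries of different lines overlapped. The log2 fold change was 2.79 (standard error 0.12, edgeR adjusted p = 5.17e-15) in shHMGA2-1, a 6.91-fold increase, and 1.08 (standard error 0.13, edgeR adjusted p = 1.08e-07) in shHMGA2-2, a 2.12-fold increase. Between the knockdown lines it was -1.71 (standard error 0.11, edgeR adjusted p = 1.65e-12). With all shHMGA2 libraries as a single group, ITGB4 had a log2 fold change of 2.18 (standard error 0.65, edgeR adjusted p = 0.111).

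ITGB5 (ENSG00000082781, minus strand of chromosome 3, 124761948 to 124901418), a beta chain of a vitronectin receptor, was at 18.4 and 17.6 FPKM in shNC, 17.7 and 15.95 FPKM in shHMGA2-1, and 8.89 and 8.91 FPKM in shHMGA2-2. shHMGA2-1 overlapped the controls, and shHMGA2-2 lay below both. The log2 fold change was -0.16 (standard error 0.08, edgeR adjusted p = 0.101) in shHMGA2-1 and -1.14 (standard error 0.08, edgeR adjusted p = 6.29e-12) in shHMGA2-2, a 2.2-fold decrease. Between the knockdown lines it was -0.97 (standard error 0.08, edgeR adjusted p = 1.89e-10). The gene was called in shHMGA2-1 without replicate 1 of that line (-0.23, edgeR adjusted p = 0.0132).

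ITGB3 (ENSG00000259207, plus strand of chromosome 17, 47253827 to 47313743), the beta chain of the other classical vitronectin receptor, was scarce, with 33 and 26 counts for the controls, 15 and 20 for shHMGA2-1, and 4 and 2 for shHMGA2-2. The lines did not overlap, and the second shHMGA2-2 library was under the 3 counts that a count of 0 allows. The log2 fold change was -3.32 (standard error 0.57, edgeR adjusted p = 2.31e-05) in shHMGA2-2, and -0.83 (standard error 0.42, edgeR adjusted p = 0.139) in shHMGA2-1. In GENCODE version 29, 51.6% of the exonic bases of ITGB3 also belong to a gene model on the same strand, ENSG00000259753, which had 0 counts in all 6 libraries, so reads in the shared bases may not have been counted.

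ITGB8 (ENSG00000105855, plus strand of chromosome 7, 20330702 to 20415754), a beta chain that takes part in TGF-beta activation, was scarcer still, with 6 and 5 counts for the controls, 4 and 3 for shHMGA2-1, and 10 and 18 for shHMGA2-2. The shHMGA2-2 libraries were highest, all at very low levels. Its log2 fold change was -0.71 (standard error 0.78, edgeR adjusted p = 0.527) in shHMGA2-1 and 1.25 (standard error 0.60, edgeR adjusted p = 0.0794) in shHMGA2-2. Between the knockdown lines it was 1.96 (standard error 0.66). ITGB8 was tested at all only because it was high in shHMGA2-2, so this difference is a description, and its edgeR adjusted p of 0.0155 is not read as a result. DESeq2 gave 0.158 in its place, and leaving out the second library of shHMGA2-1 or of shHMGA2-2 gave edgeR adjusted p = 0.0713 or 0.167.

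In the direct comparison of shHMGA2-2 with shHMGA2-1, 7 of the 10 genes were called without ITGB8, 6 lower and 1 higher, where 50.2% of all tested genes were called, 25.7% lower and 24.5% higher. With ITGB8, which passed the filter only through shHMGA2-2, the count was 8. With at least a 2-fold change 4 were called, ITGB8 among them (15.1% of all tested genes). The 6 lower genes were ITGA2, ITGA3, ITGB1, ITGB3, ITGB4 and ITGB5, and the higher one was ITGA6. ITGA2 differed by -0.56 (standard error 0.08, edgeR adjusted p = 3.84e-06) and ITGA3 by -0.58 (standard error 0.07, edgeR adjusted p = 6.29e-08). ITGAV and ITGA5 were not called. ITGAV gave -0.13 (standard error 0.08, edgeR adjusted p = 0.201), and it was called without shHMGA2-1 replicate 1 (-0.29, edgeR adjusted p = 0.000182).

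Read as possible pairs, the ratio of alpha to beta FPKM within a library does not depend on how libraries are scaled, but it does depend on the lengths used. The smallest 2-sided p that an exact permutation of 2 against 2 libraries allows is 0.333, so the ratios are given without a test, as mean ± SD (n = 2). ITGA6 to ITGB4 was 28.3 ± 1.83 in shNC, 2.10 ± 0.296 in shHMGA2-1 and 9.64 ± 0.137 in shHMGA2-2. The lines did not overlap, and ITGA6 mRNA remained above ITGB4 mRNA per length in each. The ratio was 13.6-fold lower in shHMGA2-1 and 2.94-fold lower in shHMGA2-2 than in shNC.

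With ITGB1 as the partner, ITGA2 stood at 0.0757 ± 0.000825 in shNC, 0.0330 ± 3.55e-05 in shHMGA2-1 and 0.0527 ± 0.00220 in shHMGA2-2. It was lowest in shHMGA2-1, where ITGA2 fell and ITGB1 nearly held its level. ITGA6 to ITGB1 was 0.155 ± 0.00488, 0.0919 ± 0.00456 and 0.308 ± 0.00469 in the same order, lower in shHMGA2-1 and higher in shHMGA2-2 than in shNC. ITGA5 to ITGB1 was 0.0452 ± 0.00259, 0.0408 ± 0.00609 and 0.0925 ± 0.0106, and ITGAV to ITGB1 was 0.0464 ± 0.000387, 0.0465 ± 0.00451 and 0.101 ± 0.00349. For these pairs shHMGA2-1 overlapped shNC and shHMGA2-2 lay above. ITGA3 to ITGB1 was 0.289 ± 0.00620, 0.276 ± 0.0454 and 0.436 ± 0.0349, with the same overlap.

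The beta partners of ITGAV differed. ITGAV to ITGB5 was 0.659 ± 0.0165 in shNC, 0.639 ± 0.143 in shHMGA2-1 and 1.14 ± 0.00743 in shHMGA2-2, above 1 by exonic size in the last line alone. ITGAV to ITGB3 was 47.3 ± 7.65 in shNC, 71.8 ± 3.93 in shHMGA2-1 and 430 ± 203 in shHMGA2-2, and these ratios rest on the few ITGB3 counts given above. ITGAV to ITGB8 was 560 ± 68.5, 821 ± 283 and 198 ± 79.8, likewise on few counts.

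Summed over the 5 beta chains, ITGB1 made up 92.9% ± 0.234 of FPKM in shNC, 89.4% ± 1.42 in shHMGA2-1 and 89.2% ± 0.224 in shHMGA2-2 (SD, n = 2). ITGB4 went from 0.507% ± 0.0155 to 3.97% ± 0.693 and 2.85% ± 0.0910. Among the 5 alpha chains, ITGA2 went from 12.4% ± 0.151 to 6.78% ± 0.710 and 5.32% ± 0.0275, and ITGA3 was the largest in every line, at 47.3%, 56.4% and 44.0%. ITGB1 over the sum of the 5 alpha chains was 1.64 ± 0.0378, 2.06 ± 0.218 and 1.01 ± 0.0475. It was lowest in shHMGA2-2.

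The exonic size in the deposited table was 3.85 times the longest coding transcript for ITGB1, 2.75 times for ITGAV and 1.00 times for ITGA2. With transcript lengths in place of exonic sizes, ITGA2 to ITGB1 in shNC was 0.0197 and ITGB1 over the sum of the 5 alpha chains was 3.69, 4.34 and 2.23 in shNC, shHMGA2-1 and shHMGA2-2. ITGAV to ITGB5 was then 1.22, 1.18 and 2.11, above 1 in every line. Of the 5 alpha chains in shNC, ITGA2 then made up 7.29% and ITGAV 12.25%. The order of the genes and their shares thus also depend on the lengths used. Changes of a ratio between lines do not depend on this choice.

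Of the 16 other integrin genes, 7 passed the filter. In shHMGA2-1, 3 fell and 2 rose, where 17.7% of all tested genes were lower and 15.8% higher. In shHMGA2-2, 3 fell and 3 rose, where 29.2% were lower and 29.5% higher. ITGA2B and ITGA9 passed only through knockdown libraries, where they were high. Without those called higher in this way, 3 fell and 1 rose in each line, and the median log2 fold change was -0.32 and -0.82 in place of -0.15 and -0.19, so neither is read as a result about the list. ITGB2, the common beta chain of leukocyte integrins, was at 4.54 and 4.55 FPKM in shNC, 3.53 and 3.22 FPKM in shHMGA2-1, and 0.52 and 0.64 FPKM in shHMGA2-2. The shHMGA2-2 libraries stood far below the others, with a log2 fold change of -3.08 (standard error 0.14, edgeR adjusted p = 1.35e-15), beside -0.49 (standard error 0.11, edgeR adjusted p = 0.000874) in shHMGA2-1. The latter call was lost with limma at a pseudocount of 0.1 (adjusted p = 0.0656). The leukocyte markers CD3E, SPI1 and LCP2 had 0 counts in all 6 libraries and PTPRC at most 2, and the 8 markers without ITGB2 itself summed to 0.04 to 0.25 FPKM in shNC, 0.11 to 0.13 in shHMGA2-1 and 0.11 to 0.30 in shHMGA2-2.

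ITGA7, a laminin receptor chain of muscle, was at 0.24 and 0.19 FPKM in shNC, 1.10 and 0.84 FPKM in shHMGA2-1, and 0.43 and 0.44 FPKM in shHMGA2-2. It was highest in shHMGA2-1, as ITGB4 was, with log2 fold changes of 2.09 and 0.90 (standard errors 0.22 and 0.25, edgeR adjusted p = 6.59e-08 and 0.00361). The second call was lost with limma (adjusted p = 0.144 and 0.0795). ITGAE, at 3.40 to 4.00 FPKM, was not called, with -0.15 and -0.19 (edgeR adjusted p = 0.316 and 0.151). ITGA2B, the platelet alpha chain, was named after its values were seen. Its counts were 0 and 1 for the controls, 12 and 9 for shHMGA2-1, and 16 and 14 for shHMGA2-2, and the fold is not given. The platelet markers GP9, PF4 and PPBP had 0 counts in all 6 libraries, and the 5 platelet markers, ITGA2B and GP1BA included, summed to 0.78 to 0.91, 0.93 to 1.79 and 1.01 to 1.02 FPKM in shNC, shHMGA2-1 and shHMGA2-2. The 5 endothelial markers summed to at most 0.66 FPKM.

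Among 35 genes for integrin ligands, 29 were tested. In shHMGA2-1, 7 fell and 12 rose, where 17.7% of all tested genes were lower and 15.8% higher. In shHMGA2-2, 8 fell and 14 rose, where 29.2% were lower and 29.5% higher. COL6A3 and LAMA4 passed the filter only through shHMGA2-2, where they were high, and without them 12 rose. The median log2 fold change was 0.18 in shHMGA2-1 and, without those genes, 0.24 in shHMGA2-2. In this list and those after it, the genes named besides FN1 were chosen among those called in both lines, so being called in both is part of the choice. FN1, fibronectin and the ligand of the ITGA5 receptor, was at 14.3 and 15.0 FPKM in shNC, 1.09 and 0.99 FPKM in shHMGA2-1, and 0.62 and 0.57 FPKM in shHMGA2-2. All knockdown libraries lay far below the controls, with log2 fold changes of -3.88 and -4.74 (standard errors 0.09 and 0.10, edgeR adjusted p = 4.86e-20 and 3.92e-22). EDIL3, a secreted ligand of ITGAV integrins, fell from 35.4 and 35.5 FPKM to 15.3 and 19.7 FPKM in shHMGA2-1 and 1.88 and 1.77 FPKM in shHMGA2-2 (log2 fold changes -1.08 and -4.40, edgeR adjusted p = 9.59e-10 and 5.94e-20).

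LAMA5, a laminin chain recognised by ITGA3 and ITGA6 receptors, moved in opposite directions. It was at 7.70 and 8.38 FPKM in shNC, 12.6 and 9.45 FPKM in shHMGA2-1, and 0.69 and 0.92 FPKM in shHMGA2-2. Thus it was highest in shHMGA2-1 and lowest in shHMGA2-2, with log2 fold changes of 0.39 and -3.44 (standard errors 0.10 and 0.13, edgeR adjusted p = 0.00334 and 3.25e-17). The rise in shHMGA2-1 was lost with limma (adjusted p = 0.0926 and 0.138), without shNC replicate 1 (0.103) and without shHMGA2-1 replicate 1 (log2 fold change 0.18, edgeR adjusted p = 0.0711). COL6A2, a collagen VI chain, rose from 0.46 and 0.38 FPKM to 2.88 and 2.61 FPKM in shHMGA2-1 and 5.08 and 5.14 FPKM in shHMGA2-2 (log2 fold changes 2.64 and 3.48, edgeR adjusted p = 1.36e-11 and 3.52e-15).

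Of 42 genes for proteins of the adhesion complex, 39 were tested. In shHMGA2-1, 18 fell and 2 rose, where 17.7% of all tested genes were lower and 15.8% higher. In shHMGA2-2, 25 fell and 6 rose, where 29.2% were lower and 29.5% higher, and 5 rose without PTK2B, which passed the filter only through shHMGA2-2. The median log2 fold change was -0.19 in shHMGA2-1 and, without PTK2B, -0.47 in shHMGA2-2. TLN1, talin, which binds the beta tail and activates integrins, was at 67.2 and 68.9 FPKM in shNC, 43.4 and 38.0 FPKM in shHMGA2-1, and 30.9 and 31.6 FPKM in shHMGA2-2. The lines did not overlap, and its log2 fold changes were -0.81 and -1.24 (standard error 0.06 for each, edgeR adjusted p = 3.08e-10 and 2.3e-14). PXN, the adaptor paxillin, had log2 fold changes of -0.30 and -1.07, VASP, an actin regulator, of -0.71 and -1.03, and TNS2, a tensin, of -1.07 and -1.80 (edgeR adjusted p from 4.75e-13 to 0.00178). The call of PXN in shHMGA2-1 was lost with limma (adjusted p = 0.103 and 0.106).

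Of 10 membrane proteins that associate with integrins, 7 fell in shHMGA2-1, where 17.7% of all tested genes were lower. In shHMGA2-2 5 fell and 1 rose, a share called near the 58.8% of all tested genes. The medians were -0.41 and -0.19. CD82, a tetraspanin, was the one that rose. It was at 2.42 and 2.45 FPKM in shNC, 0.37 and 0.49 FPKM in shHMGA2-1, and 8.42 and 8.87 FPKM in shHMGA2-2. The knockdown lines lay on opposite sides of the control, with log2 fold changes of -2.55 and 1.71 (standard errors 0.19 and 0.13, edgeR adjusted p = 1.37e-10 and 2.06e-11). The tetraspanins CD63 (-0.43 and -0.70) and CD9 (-0.42 and -0.55) and CD47, a partner of ITGAV and ITGB3 (-1.01 and -0.68), fell on the log2 scale in both lines (edgeR adjusted p from 1.2e-10 to 8.34e-05).

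Of 14 genes for integrin trafficking, 12 were tested. In shHMGA2-1, 3 fell and 2 rose, where 33.5% of all tested genes were called. In shHMGA2-2, 4 fell and 3 rose, where 58.8% were called. Both shares lie near the background, and the medians were -0.11 and 0.03. MICALL1, of recycling endosomes, had log2 fold changes of -0.88 and -1.34, and RAB21, which carries integrins in endosomes, of -0.25 and -0.33. SNX17, which returns ITGB1 from endosomes to the surface, rose by 0.42 and 0.63. The edgeR adjusted p of these genes ran from 3.23e-10 to 0.0247. The call of RAB21 was lost in 9 alternatives in shHMGA2-1 (adjusted p from 0.0537 to 0.228) and with limma in shHMGA2-2 (0.116 and 0.119).

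**Figure D4:**
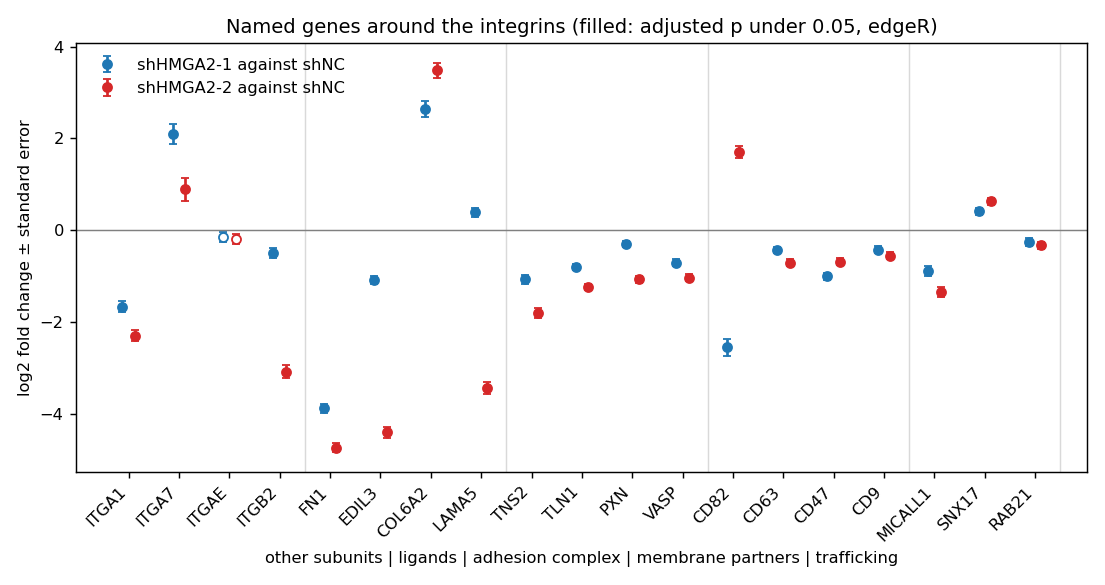
Log2 fold change with standard error against shNC of the named genes around the integrins, in groups from other subunits to trafficking, with filled points at an edgeR adjusted p under 0.05. FN1 lies at -3.88 and -4.74, and CD82 and LAMA5 lie on opposite sides of 0 in the knockdown lines.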

How the data were processed

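RNA of 6 MDA-MB-231 samples was sequenced, and the sample titles gave each library its line and number. The authors deposited a single table with raw counts per gene, not normalized, and FPKM values, made from the counts, the exonic size and the library total. Recomputing them from the counts gave 100% of values within 0.0051. The submitters' processing notes name HISAT2 2.2.1, HTSeq 0.6.1 and GRCh38.p13, and the paper's methods name DESeq2 1.26.0. Strand setting, read length and the handling of reads with several matches are not given in the sources used here. 20417 of the 61806 genes have no symbol.

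Counts were tested with edgeR 4.0.16 in R 4.3.3 (TMM factors 0.958 to 1.05, filterByExpr, quasi-likelihood test, Benjamini-Hochberg adjustment over 16110 genes). The 3 lines were fitted in a single model, and the 4 shHMGA2 libraries against shNC in a second. Fold changes come from these fits, FPKM levels from the deposited values, and ratios from FPKM recomputed without rounding. The standard error of an edgeR log2 fold change was derived as its absolute value over the square root of the F statistic of its test. A floor of 3 counts, 0.175 to 0.182 CPM, stood for the limit that a count of 0 allows for counting error alone. Within a line the libraries differed beyond sampling noise (chi-square per degree of freedom 2.03, 6.49 and 3.02). Scripts were tested on simulated counts.

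The 10 genes and the lists were chosen with earlier results of these data known. Named genes were the 10, other integrin genes whose mean FPKM reached 0.5, HMGA2, FN1, and in each list up to 4 genes with the largest change in shHMGA2-2 among those whose mean FPKM reached 1 and that were called in both knockdown lines. Alternatives were DESeq2 1.42.0, upper quartile scaling, library totals, other filters, limma 3.58.1 on log2(FPKM + 1) or log2(FPKM + 0.1), the replicate block, each library left out, transcript lengths, and, chosen after seeing the data, ITGB1P1 counts added to ITGB1. Sequence overlaps were computed from GENCODE version 29 with python 3.11.15, and promoters are those of RefSeq. Protein sequences were not analysed here.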

Additional observations from a re-analysis of the deposited data

Results flagged for a closer look

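For 7 of the 10 integrin genes the change against shNC differed between the knockdown lines, by the edgeR test of shHMGA2-2 against shHMGA2-1. Of all tested genes 50.2% were called in that comparison. The log2 differences were -0.56 for ITGA2, -0.58 for ITGA3, 0.51 for ITGA6, -1.24 for ITGB1, -2.50 for ITGB3, -1.71 for ITGB4 and -0.97 for ITGB5. ITGB3 rests on 2 to 33 counts a library. ITGB8, at 3 to 18 counts, gave 1.96, but it passed the filter only through shHMGA2-2, where it was high, and its call was lost in 3 alternatives. HMGA2 itself differed by -1.01. Since each knockdown line is a single clone by the methods, the clone and the hairpin cannot be told apart.

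Among the other integrin genes the differences were -0.63 for ITGA1, -1.20 for ITGA7 and -2.58 for ITGB2. Among ligands they were -0.86 for FN1, -3.32 for EDIL3, 0.84 for COL6A2 and -3.83 for LAMA5. In the adhesion complex they were -0.44 for TLN1, -0.77 for PXN, -0.32 for VASP and -0.73 for TNS2. The membrane partners CD63, CD82 and CD47 gave -0.27, 4.26 and 0.32, and SNX17 and MICALL1 of the trafficking list gave 0.22 and -0.46. The call of SNX17 was lost without either shNC library (edgeR adjusted p = 0.0559 and 0.052), shHMGA2-1 replicate 2 (0.0537) or shHMGA2-2 replicate 2 (0.13, edgeR adjusted p = 0.319). That of MICALL1 was lost with limma (0.105) and without replicate 1 of shHMGA2-1 (0.0763) or shHMGA2-2 (0.0715), and that of ITGA1 with limma (0.127 and 0.0666). CD82 and LAMA5 moved in opposite directions against shNC, and the rise of LAMA5 in shHMGA2-1 was lost in 4 alternatives.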

How the results depend on the processing

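No named gene that was called reversed its direction in an alternative. The number of the 10 genes called in shHMGA2-1 fell from 7 to 3 with limma at either pseudocount, and was 4 to 7 with a library left out, the lowest without shNC replicate 2. In shHMGA2-1 limma called 24.9% and 24.5% of the 14324 genes it tested, at pseudocounts of 1 and 0.1, beside 33.5% with edgeR. Its filter, a mean FPKM of at least 0.5, left ITGB3 and ITGB8 untested in every comparison. With a change of at least 2-fold, limma at a pseudocount of 1 gave 2 in place of 5 in shHMGA2-2, where the untested ITGB3 was among the 5. Between the knockdown lines, limma at either pseudocount and a mean FPKM of at least 1 gave 2 in place of 4, where ITGB3 and ITGB8 were not tested. With all shHMGA2 libraries as a single group, DESeq2 called 4 in place of 1 (ITGA5, ITGA6 and ITGB4 besides ITGA2), 2 of them at least 2-fold in place of 1, and 0 to 1 were called with a library left out, 0 without either shNC library. The cause of these changes was not tested. Over all tested genes this last comparison called 5.26%, 11.2% with DESeq2, 2.21% without the filter, and 0.0248% to 5.10% with a library left out. In shHMGA2-1 the share was 33.5%, and 20.4% to 36% with a library left out. With library totals only, higher genes made up 58.6% of all calls in shHMGA2-1 and 60.2% in shHMGA2-2, and in the single group 55.6%, or 55.7% with the upper quartile, in place of 44.5%. The median of all genes moved to 0.15 in shHMGA2-2.

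With the replicate block, 7, 9, 8 and 1 of the 10 genes were called in shHMGA2-1, shHMGA2-2, between them and in the single group. Of all tested genes 30%, 56.3%, 47.2% and 0.944% were called in the same order. The 8 between the knockdown lines include ITGB8, which passed the filter only through shHMGA2-2, so its call is not read as a result. Same-numbered libraries did not deviate together (correlations -0.0218, 0.00205 and -0.0995), so no shared effect of the number was visible. Whether same-numbered libraries were prepared together cannot be read from this, and the labels do not say.

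With transcript lengths the shNC ratios were 0.0197 for ITGA2, 0.151 for ITGA3, 0.0195 for ITGA5, 0.0478 for ITGA6 and 0.0332 for ITGAV to ITGB1, and 76.1, 1.22 and 889 for ITGAV to ITGB3, ITGB5 and ITGB8.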
